A study of Mus musculus with 12 samples.

Results

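The genes described here are 35 genes of DNA replication and the cell cycle: 10 for replication licensing and for nucleotide or DNA synthesis, 7 cyclins and kinases of G1 and the G1/S step, 16 genes that act or peak between S phase and mitosis (called mitotic below), and 2 inhibitors of cyclin-dependent kinases (Cdks). They were chosen by name, with earlier results of these data known, and each is represented by its brightest probe over all arrays. Of the 35, 33 had a probe matched by accession and were tested among 19178 features; Rrm2 and Ccnd1 are not analysed here. The samples came from the mouse gonad at embryonic day 11.5, after a sort for somatic cells, with 3 single embryos in each of 4 groups. Control females and control males were heterozygous for a mutant allele of Jmjd1a, the gene now called Kdm3a, which encodes a histone demethylase that removes methyl groups from H3K9. Mutant females and mutant males (Jmjd1a_null in the labels) were homozygous for it. The controls thus carried 1 mutant allele, and no wild-type embryos are among the groups. All embryos carried the Nr5a1/CD271 transgene, which puts the surface protein CD271 on cells that use Nr5a1, a gene of the gonadal soma. Gonads were trypsinized together with the adjoining mesonephroi, CD271-bearing cells were pulled out with magnetic beads, and the RNA of 1 embryo was amplified, labelled with Cy3 and put on 1 array.

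Cells license replication origins in G1 by loading the Mcm2 to Mcm7 helicase, enter S phase once D-type cyclins with Cdk4 and E-type cyclins with Cdk2 have released E2F factors from RB proteins, and divide under cyclin B with Cdk1, the Aurora and Polo kinases and the spindle checkpoint. Cdkn1a (p21) and Cdkn1b (p27) bind these kinases and hold cells back in G1. In the early gonad, cells of the surface epithelium proliferate and supply somatic precursors, and proliferation is known to rise in the XY gonad once Sry is expressed.

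The promoters show how replication and mitotic genes differ in sequence, independently of any expression value. RefSeq windows of GRCm38.p6, from 250 bases before to 50 after a start site, matched 28 of the 33 measured members in 31 windows. Letters of 3 kinds were searched on both strands: 4 forms of the E2F motif (TTTCCCGC, TTTGGCGC, TTTCGCGC and TTTGCCGC, which can overlap on opposite strands), the cell cycle homology region or CHR (TTTGAA), and CCAAT. Shown are the 160 bases before the start of a pair of E2F-bearing licensing genes, of a pair of CHR-bearing mitotic genes, and of Mcm2 and Cdkn1a, on which the results below turn most; capitals mark every match of any of the 3 kinds.
Mcm6 (chr1:128359706-128359865, minus strand): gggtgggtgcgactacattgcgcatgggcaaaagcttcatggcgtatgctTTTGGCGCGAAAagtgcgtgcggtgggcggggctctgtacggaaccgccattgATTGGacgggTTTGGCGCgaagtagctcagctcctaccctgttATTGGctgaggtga
Mcm5 (chr8:75109349-75109508, plus strand): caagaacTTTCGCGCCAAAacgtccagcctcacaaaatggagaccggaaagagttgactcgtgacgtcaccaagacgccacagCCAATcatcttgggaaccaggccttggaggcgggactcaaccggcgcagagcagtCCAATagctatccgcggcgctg
Cdk1 (chr10:69352913-69353072, minus strand): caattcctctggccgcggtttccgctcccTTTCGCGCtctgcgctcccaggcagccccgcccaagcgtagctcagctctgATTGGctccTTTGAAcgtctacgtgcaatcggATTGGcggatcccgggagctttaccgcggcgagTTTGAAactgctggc
Cdc20 (chr4:118437344-118437503, minus strand): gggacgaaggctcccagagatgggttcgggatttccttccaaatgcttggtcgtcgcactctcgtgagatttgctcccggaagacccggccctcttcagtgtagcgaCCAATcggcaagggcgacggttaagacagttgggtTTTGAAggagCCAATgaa
Mcm2 (chr6:88898781-88898940, minus strand): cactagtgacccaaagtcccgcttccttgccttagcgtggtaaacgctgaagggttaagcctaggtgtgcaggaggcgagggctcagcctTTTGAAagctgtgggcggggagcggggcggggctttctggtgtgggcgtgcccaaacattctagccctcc
Cdkn1a, upstream start (chr17:29090819-29090978, plus strand): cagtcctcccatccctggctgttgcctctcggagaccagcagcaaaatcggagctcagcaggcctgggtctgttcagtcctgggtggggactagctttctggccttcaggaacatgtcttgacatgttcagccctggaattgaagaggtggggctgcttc
Cdkn1a, downstream start (chr17:29093609-29093768, plus strand): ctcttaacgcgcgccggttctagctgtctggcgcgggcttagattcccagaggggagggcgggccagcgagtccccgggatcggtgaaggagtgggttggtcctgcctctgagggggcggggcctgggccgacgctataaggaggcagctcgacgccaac
An E2F motif was found in 4 of the 8 licensing and synthesis genes with a window (Mcm3, Mcm5, Mcm6 and Mcm7; 50%), in Cdk2 among the 4 G1 and G1/S genes, and in Cdk1 among the 14 mitotic genes, against 2.6% of all 27025 genes in the table. The CHR letters were found in 10 of the 14 mitotic genes (71.4%) and in 1 of the 8 licensing and synthesis genes, Mcm2, against 20.2% of all genes. CCAAT was found in 13 of the 14 mitotic genes and 7 of the 8 licensing and synthesis genes, against 41.1% of all genes. Neither window of Cdkn1a held any of the 3. These are matches of letters and not measured binding sites.

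Levels below are log2 values of the processed signal relative to the 75th percentile of their own array, so a gene can be compared between embryos but not with another gene. That percentile lay between 139.8 and 291.7, and 58.0% to 65.2% of spots were well above background. The level of Kdm3a was 2.93 ± 0.0805 (SD, n = 3) in control females and 2.89 ± 0.165 in control males, against 0.66 ± 0.166 in mutant females and 0.95 ± 0.181 in mutant males, with no overlap between genotypes. All 9 markers of gonadal somatic cells were detected. Of 7 germ cell markers 6 were detected too, and Dazl was well above background on no array. All erythroid, endothelial, leukocyte, mesonephric and mesenchymal markers with a probe were also detected. Detected here means well above background on at least 1 of the 12 arrays. The stricter filter of the fit, every array of some group, kept 5 of 7 germ cell, 7 of 8 erythroid and 4 of 6 leukocyte markers. The summed linear erythroid signal relative to the 75th percentile was 48.8 to 699 in control females and 20.3 to 420 in mutant females. In control males it was 28.4 to 214 and in mutant males 24.1 to 285. The part of this spread in the differences below was not tested. The 12 arrays lay on 3 slides. The control males shared slide 1 with mutant male 1. Control females 1 and 2 shared slide 2 with mutant males 2 and 3. Control female 3 was alone among the mutant females on slide 3. Control female 3 stood apart from the other control females: it was nearer to the mutant female mean in 77.2% of all features and in 26 of the 33 members (78.8%).

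Of the 33 measured members, 32 were well above background on all 12 arrays and none was saturated. In 31 of them the probe was 1 spot per array; Pcna and Cdkn1a had 10 spots each, with a median SD between spots of an array of 0.0509 and 0.0329. The members varied less between embryos of a group than most features, with a median within-group SD of 0.167 against 0.235 for all features. By class it was 0.121 for licensing and synthesis genes, 0.158 for G1 and G1/S genes, 0.169 for mitotic genes and 0.219 for the inhibitors.

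**Figure D1:**
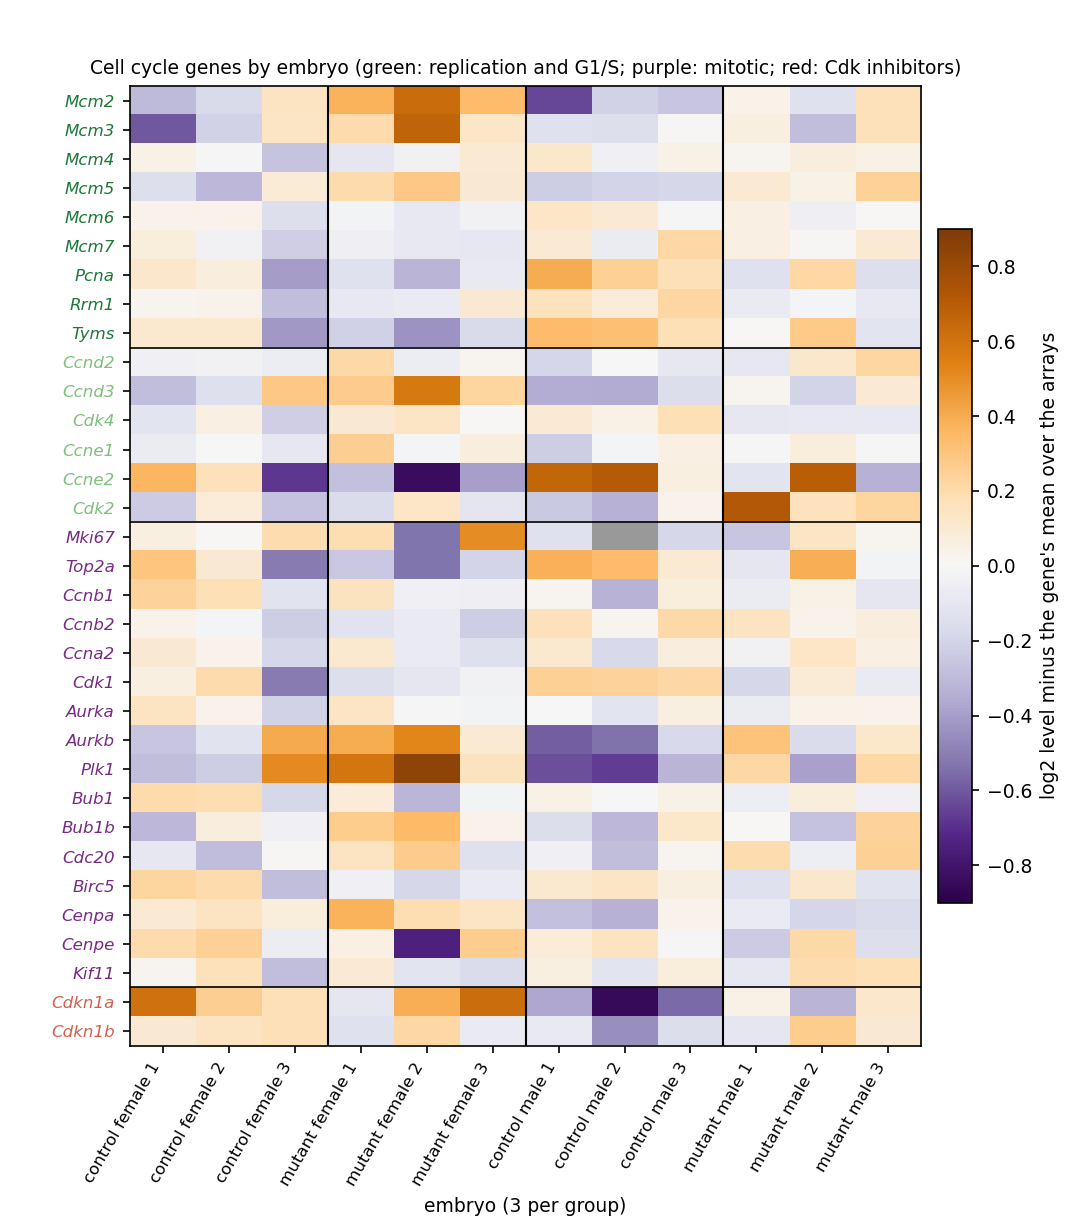
Log2 level of the 33 measured members in each of the 12 embryos (3 per group), minus the mean of the gene over the arrays, as a colour scale. Plk1, Aurkb, Mcm2, Mcm3 and Ccnd3 are high in control female 3 and the mutant females, where Ccne2, Top2a and Tyms are low in most, and Cdkn1a is lowest in the control males.

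The first question was how these genes differ between homozygous mutants and heterozygous controls. In limma over all features with Benjamini-Hochberg adjustment, 0 of 33 members passed an adjusted p of 0.05 for the mutant effect averaged over the sexes, where 1.12% of all features passed. An unadjusted p under 0.05 was found for 6 members, all higher in mutants, and for 23.6% of all features. In males 0 members passed, against 0.48% of features, and 5 had an unadjusted p under 0.05, against 11.9%. In females 0 members passed, against 0.355% of features, and 4 had an unadjusted p under 0.05, against 10.4%. The members' shares lie near the background in each case. Averaged over the sexes, the 95% confidence interval lay within 2-fold either way for all 33 members, against 92.4% of features. Within each sex it did for 30 of 33 members, against 81.0% of features in males and 82.2% in females. These intervals come from a fit without a term for slide, so they do not cover differences between slides. With slide in the fit as a block, 9 of 33 members had the other sign in the average over the sexes. In bulk samples, fewer cells of a type and less RNA per cell cannot be told apart.

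The Mcm genes, which encode the subunits of the replicative helicase, fell into members with a positive difference and members near 0. Mcm2 levels were 1.67, 1.80 and 2.11 in female controls, 2.34, 2.60 and 2.30 in female mutants, 1.32, 1.76 and 1.71 in male controls and 2.01, 1.84 and 2.13 in male mutants. Every mutant lay above every control of its sex. The difference averaged over the sexes was 0.47 ± 0.115 (SE, adjusted p = 0.082), or 1.39-fold, with a 95% interval of 0.22 to 0.73 in log2; this was the smallest p of any member in that comparison, and over 21 alternative settings its adjusted p ranged from 0.0032 to 0.72. Mcm5 levels were 3.97, 3.80 and 4.19 in female controls, 4.31, 4.39 and 4.21 in female mutants, 3.88, 3.90 and 3.92 in male controls and 4.21, 4.16 and 4.35 in male mutants. These groups did not overlap in either sex, and the difference was 0.33 ± 0.0852 (adjusted p = 0.1). Groups without overlap were found for 8 of the 33 members in males, 5 higher and 3 lower in mutants, where 20.3% of all features had them, and for Mcm2 and Mcm5 alone among the members in females, where 12.8% of features had them.

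Mcm3 levels were 0.03, 0.42 and 0.76 in female controls, 0.83, 1.29 and 0.76 in female mutants, 0.50, 0.48 and 0.64 in male controls and 0.69, 0.35 and 0.79 in male mutants. The mutant females were spread above the controls with overlap (0.56 ± 0.204, adjusted p = 0.44), and in males the difference was 0.07 ± 0.204 (adjusted p = 0.86). The difference between the mutant effects was -0.49 ± 0.289 (adjusted p = 1.0). The other subunits lay near 0: averaged over the sexes, the 95% interval was -0.14 to 0.21 for Mcm4, -0.20 to 0.11 for Mcm6 and -0.20 to 0.16 for Mcm7, all within 1.16-fold.

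The synthesis genes had negative differences, none past the threshold. Pcna, the sliding clamp of the replication fork, had levels of 5.30, 5.26 and 4.78 in female controls, 5.06, 4.87 and 5.11 in female mutants, 5.58, 5.44 and 5.36 in male controls and 5.06, 5.40 and 5.05 in male mutants. The groups overlapped in both sexes, and the difference averaged over them was -0.20 ± 0.114 (adjusted p = 0.28). Tyms, which makes thymidylate, had levels of 4.84, 4.84 and 4.32 in female controls, 4.52, 4.30 and 4.56 in female mutants, 5.08, 5.06 and 4.91 in male controls and 4.74, 5.01 and 4.62 in male mutants, and its difference was -0.22 ± 0.116 (adjusted p = 0.26). Rrm1, the large subunit of ribonucleotide reductase, had levels of 4.28, 4.29 and 3.96 in female controls, 4.17, 4.18 and 4.35 in female mutants, 4.41, 4.34 and 4.47 in male controls and 4.18, 4.24 and 4.17 in male mutants. All mutant males lay below all control males in Rrm1, while the females overlapped, and the difference averaged over the sexes was -0.08 ± 0.0824 (adjusted p = 0.53); with normexp background correction its sign turned (0.02). Over the 9 licensing and synthesis genes, 4 differences were positive and 5 negative, with a median of -0.02 beside -0.05 for all features.

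Among the G1 and G1/S genes, Ccnd3 (cyclin D3) had the smallest p. Its levels were 3.65, 3.80 and 4.22 in female controls, 4.21, 4.51 and 4.17 in female mutants, 3.59, 3.58 and 3.78 in male controls and 3.96, 3.73 and 4.03 in male mutants. Control female 3 lay inside the range of the mutant females, the males overlapped as well, and the difference averaged over the sexes was 0.33 ± 0.116 (adjusted p = 0.17). Ccnd2 (cyclin D2) had levels of 4.46, 4.47 and 4.44 in female controls, 4.71, 4.44 and 4.53 in female mutants, 4.31, 4.50 and 4.40 in male controls and 4.40, 4.61 and 4.72 in male mutants, with overlap in both sexes and a difference of 0.14 ± 0.0835 (adjusted p = 0.29). Cdk2, the partner of the E-type cyclins, had levels of -4.02, -3.70 and -4.05 in female controls, -3.95, -3.66 and -3.89 in female mutants, -4.03, -4.12 and -3.75 in male controls and -3.07, -3.62 and -3.55 in male mutants. The males did not overlap, and Cdk2 had the smallest p of any member in that sex, with a difference of 0.55 ± 0.175 (adjusted p = 0.29). With normexp background correction the Cdk2 difference was -0.05 in males and -0.09 averaged over the sexes, so its direction depended on how background was treated.

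Cdk4, the partner of the D-type cyclins, had levels of 3.89, 4.06 and 3.79 in female controls, 4.11, 4.14 and 4.01 in female mutants, 4.10, 4.05 and 4.19 in male controls and 3.91, 3.92 and 3.92 in male mutants. The mutant males lay below the control males (-0.20 ± 0.104, adjusted p = 0.43), and the females had the opposite sign with overlap (0.17 ± 0.104, adjusted p = 0.49). In limma the difference between the mutant effects was -0.37 ± 0.147, with an unadjusted p of 0.029 and an adjusted p of 1.0. The E-type cyclins differed in sign: Ccne1 by 0.12 ± 0.0801 (adjusted p = 0.33) and Ccne2, the member with the widest spread within groups, by -0.42 ± 0.232 (adjusted p = 0.26). Ccne2 levels were -0.50, -0.69 and -1.54 in female controls, -1.13, -1.70 and -1.25 in female mutants, -0.20, -0.15 and -0.79 in male controls and -0.97, -0.16 and -1.19 in male mutants. The median of the 6 G1 and G1/S genes was 0.13, with 4 positive and 2 negative.

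The mitotic genes were spread around 0 as well. Plk1, the Polo-like kinase of mitotic entry and spindle assembly, had levels of 3.43, 3.48 and 4.22 in female controls, 4.30, 4.55 and 3.86 in female mutants, 3.09, 3.05 and 3.39 in male controls and 3.92, 3.32 and 3.92 in male mutants. The groups overlapped in both sexes, and the difference averaged over them was 0.54 ± 0.181 (adjusted p = 0.17), or 1.45-fold, the largest of any member in that comparison. Aurkb (Aurora B, the kinase of the chromosomal passenger complex) had levels of -0.32, -0.19 and 0.34 in female controls, 0.33, 0.45 and 0.03 in female mutants, -0.66, -0.60 and -0.24 in male controls and 0.24, -0.23 and 0.05 in male mutants. The males did not overlap and the females did, with a difference of 0.43 ± 0.144 (adjusted p = 0.17). Bub1b, a kinase-like protein of the spindle checkpoint, had levels of 0.38, 0.75 and 0.64 in female controls, 0.94, 1.03 and 0.72 in female mutants, 0.53, 0.38 and 0.80 in male controls and 0.69, 0.41 and 0.92 in male mutants and a difference of 0.21 ± 0.12 (adjusted p = 0.28).

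Other kinases, cyclins and motors of mitosis had differences near 0. Aurka (Aurora A) differed by 0.03 ± 0.0827, cyclin A2 (Ccna2) by 0.02 ± 0.0892, the B-type cyclins Ccnb1 and Ccnb2 by -0.02 ± 0.1 and -0.06 ± 0.0777, and the spindle motor Kif11 by 0.03 ± 0.102, with adjusted p-values of 0.61 to 0.89 in limma. Cdk1, the kinase of mitotic entry, had levels of 1.31, 1.46 and 0.75 in female controls, 1.11, 1.15 and 1.22 in female mutants, 1.5, 1.49 and 1.47 in male controls and 1.07, 1.34 and 1.18 in male mutants. All mutant males lay below all control males, while the females overlapped, and the difference averaged over the sexes was -0.15 ± 0.117 (adjusted p = 0.39). Birc5 (survivin), which sits in 1 complex with Aurora B, differed by -0.15 ± 0.102 (adjusted p = 0.34), and Top2a, the topoisomerase that untangles chromosomes, by -0.24 ± 0.149 (adjusted p = 0.3). The remaining mitotic genes, Bub1, Cdc20, Cenpa and Cenpe, had differences from -0.20 to 0.23. Mki67, the gene of the proliferation marker Ki-67, had levels of 2.95, 2.89 and 3.09 in control females, 3.08, 2.36 and 3.40 in mutant females, 2.76 and 2.71 in control males 1 and 3, and 2.64, 3.03 and 2.91 in mutant males; the spot on control male 2 was an outlier and was left out of the fit. Its groups overlapped in both sexes, the difference was 0.05 ± 0.172 with a 95% interval of -0.34 to 0.43, and another probe of the gene gave -0.07. Over the 16 mitotic genes 9 differences were positive and 7 negative, with a median of 0.03.

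**Figure D2:**
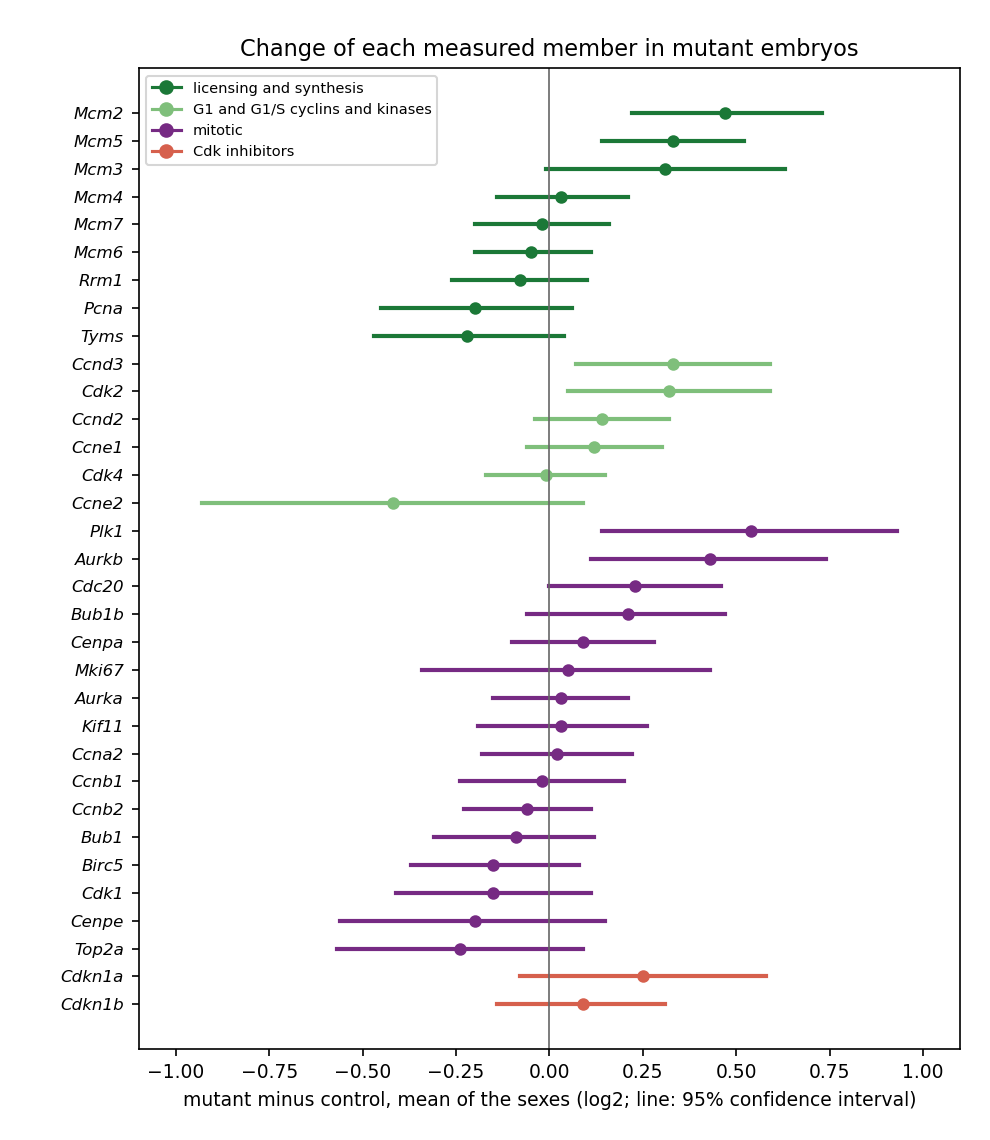
Difference between mutant and control embryos averaged over the sexes for each measured member, on the log2 scale, with 95% confidence intervals from limma and colours for the 4 classes. The intervals of Mcm2, Mcm5, Ccnd3, Cdk2, Plk1 and Aurkb lie above 0 before adjustment, no member passed after it, and all 33 intervals lie between -1 and 1.

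The larger differences were also taken within a slide, and with slide or array brightness in the fit. The part of slide and brightness in them was not tested. Within slide 3, where the mutant females met control female 3 alone, the difference was 0.01 for Plk1, -0.07 for Aurkb, 0.07 for Ccnd3, 0.11 for Mcm5 and 0.30 for Mcm2. Within slide 1, where mutant male 1 alone met the control males, it was 0.75, 0.74, 0.31, 0.30 and 0.41 for the same genes. For Cdk2 it was 0.22 within slide 3 and 0.89 within slide 1, and for Ccne2 0.17 and -0.59. For Tyms, Cdk1 and Birc5 it was 0.15, 0.42 and 0.19 within slide 3, and -0.28, -0.42 and -0.23 within slide 1. Control female 3 exceeded the mean of the other control females by 0.77 in Plk1, 0.59 in Aurkb, 0.54 in Mcm3, 0.50 in Ccnd3 and 0.38 in Mcm2. Its difference from them was -0.94 in Ccne2, -0.71 in Top2a and -0.64 in Cdk1. With slide as a block, the difference averaged over the sexes was 0.36 for Mcm2, 0.21 for Mcm5 and 0.38 for Plk1. With brightness as a covariate it was 0.33, 0.28 and 0.30.

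Leaving out control female 3 raised the number of members called for the mutant effect averaged over the sexes from 0 to 8 of 33 (24.2%), and the share of all features called to 24.5%. In limma without that embryo, Mcm2 (0.54, adjusted p = 0.024), Mcm5 (0.38, adjusted p = 0.022), Ccnd3 (0.41, adjusted p = 0.028), Plk1 (0.66, adjusted p = 0.029) and Aurkb (0.52, adjusted p = 0.029) were higher in mutants, and Tyms (-0.30, adjusted p = 0.043), Cdk1 (-0.26, adjusted p = 0.037) and Birc5 (-0.23, adjusted p = 0.046) were lower. Within slide 3, where control female 3 was the only control, Tyms, Cdk1 and Birc5 had the opposite sign. The members were called at close to the rate of all features. Without control female 3 no slide held females of both genotypes, so slide and genotype cannot be told apart in females. That embryo lay nearer the mutant females in most features, so leaving it out tends to widen the differences. With array weights estimated by limma, 14 members and 9952 of the 19178 features were called in the same comparison. The 8 members called without control female 3 came from all classes but the inhibitors: 3 of 9 licensing and synthesis genes, 1 of 6 G1 and G1/S genes and 4 of 16 mitotic genes.

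Much of the variance of the members between arrays lay on an axis that crossed the classes. In a principal component analysis of the 32 members measured on all arrays, with genes centred but not scaled, the first axis held 67.8% of that variance. Genes of wide spread thus weigh most: loadings were -0.437 for Ccne2 and 0.407 for Plk1, against -0.008 for Ccnb1 and -0.013 for Cdk4. The share of such an axis over all features was not computed. Plk1, Aurkb, Mcm2, Ccnd3, Cdkn1a, Mcm3, Bub1b and Mcm5 had the 8 highest loadings, and Ccne2, Top2a, Tyms, Pcna, Cenpe, Cdk1, Birc5 and Bub1 the 8 lowest. Of the 8 highest, 3 were mitotic and 3 were licensing and synthesis genes; of the 8 lowest, 5 and 2. Some genes that work together lay at opposite ends, such as Plk1 and Cdk1 in mitotic entry, Aurkb and Birc5 in the passenger complex, and Mcm2 and Pcna at the fork. Others shared an end, such as Plk1 with Aurkb, Mcm2 with Mcm3 and Mcm5, and Pcna with Tyms. Scores were 0.70 to 2.08 on slide 3, which was the brightest (75th percentile of 260.4 to 291.7), -1.05 to 0.59 on slide 2 (171.3 to 245.2) and -1.58 to 0.46 on slide 1 (139.8 to 215.5). The part of slide and brightness in the axis was not tested.

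**Figure D3:**
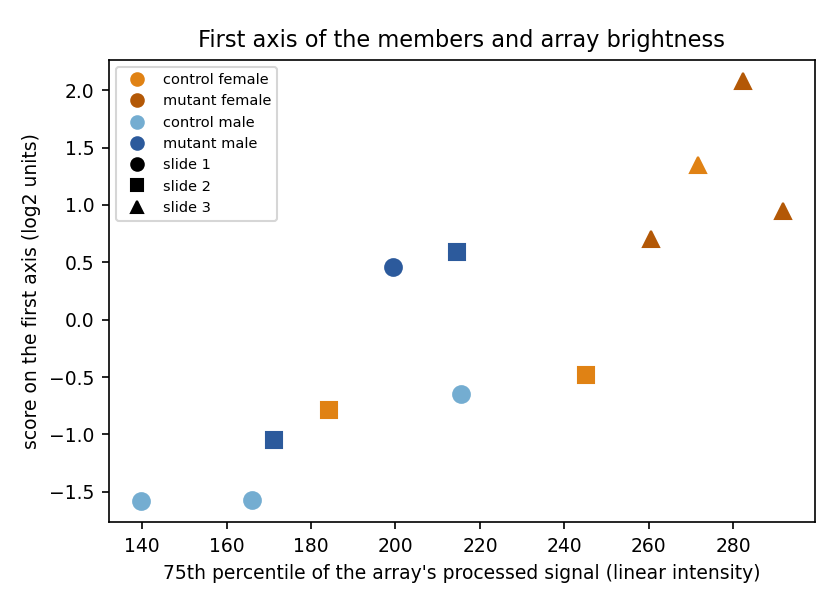
Score of each array on the first principal axis of the members (log2 units) against the 75th percentile of its processed signal (linear intensity), by group and slide. The 4 arrays of slide 3 have the highest scores, 0.70 to 2.08, and control female 3 sits among the mutant females.

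The next question was whether replication genes, mitotic genes and inhibitors differ as classes. After each gene was centred on its mean over the arrays, the mean of the 15 replication and G1/S genes lay between -0.16 and 0.06 in every embryo, and that of the 16 mitotic genes between -0.13 and 0.13. The replication mean minus the mitotic mean was -0.11 to -0.07 in control females, -0.09 to 0.07 in mutant females, 0.01 to 0.14 in control males and 0.00 to 0.06 in mutant males. The gap between the replication and mitotic means was at most 0.14 in any embryo; members with differences of opposite sign offset each other in these means. The mean of the 2 inhibitors, which averages fewer genes, was 0.24 ± 0.102 (SD, n = 3) in control females, 0.15 ± 0.234 in mutant females, -0.41 ± 0.215 in control males and 0.02 ± 0.0808 in mutant males. The control males lay below all other embryos in it.

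The median mutant effect over all features was -0.04 in males and -0.05 in females. The class medians in males were -0.03 for licensing and synthesis, 0.13 for G1 and G1/S, 0.04 for mitotic genes and 0.43 for the inhibitors. In females they were 0.06, 0.13, -0.02 and -0.09. The mutant effect had the same sign in both sexes for 24 of 33 members (72.7%), against 75.9% of all features.

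**Figure D4:**
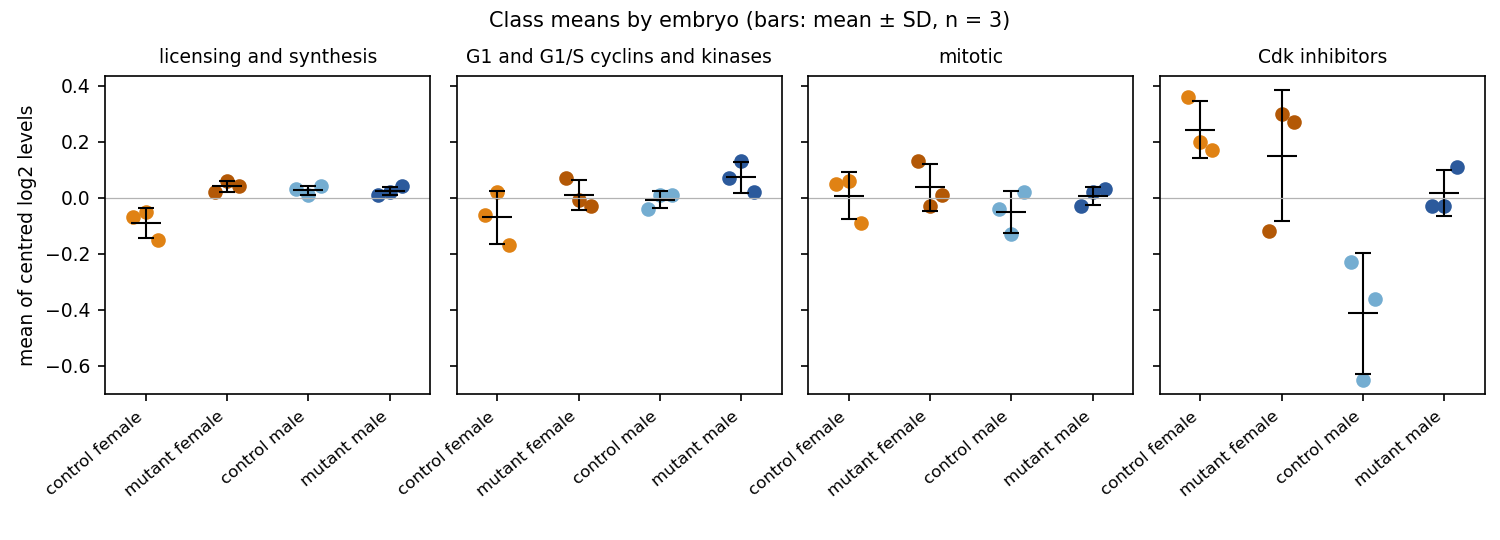
Mean centred log2 level of the genes of each class in each embryo (points), with the group mean and SD (n = 3). The licensing and synthesis, G1 and G1/S and mitotic means lie between -0.17 and 0.13 in all embryos, and the mean of the 2 Cdk inhibitors is lowest in the control males (-0.65 to -0.23).

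The sexes were compared within each genotype. The largest difference of any member in any comparison was in Cdkn1a between control males and control females. Cdkn1a levels were 1.68, 1.33 and 1.24 in female controls, 0.97, 1.46 and 1.70 in female mutants, 0.70, 0.22 and 0.51 in male controls and 1.11, 0.75 and 1.19 in male mutants. All control males lay below all control females, and the mutant sexes overlapped. The sex difference, male minus female, was -0.94 ± 0.211 (SE, adjusted p = 0.16) in controls, or 1.92-fold lower in males with a 95% interval of -1.41 to -0.48 in log2, and -0.36 ± 0.211 (adjusted p = 0.5) in mutants. The control difference did not pass in limma; over 22 alternative settings its adjusted p ranged from 0.04 to 0.74. Against the same control males, the mutant males differed by 0.54 ± 0.211 (adjusted p = 0.38), so these comparisons share those 3 embryos. In females the mutant effect was -0.04 ± 0.211 (adjusted p = 0.93), and the difference between the mutant effects was 0.58 ± 0.298 (adjusted p = 1.0).

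Cdkn1b levels were 1.86, 1.89 and 1.93 in female controls, 1.62, 1.97 and 1.68 in female mutants, 1.67, 1.31 and 1.60 in male controls and 1.65, 2.02 and 1.85 in male mutants. All control males again lay below all control females (-0.37 ± 0.143, adjusted p = 0.46), and the sex difference in mutants was 0.08 ± 0.143 (adjusted p = 0.8). The mutant effect was 0.31 ± 0.143 in males and -0.14 ± 0.143 in females, and in limma their difference was 0.45 ± 0.202, with an unadjusted p of 0.048 and an adjusted p of 1.0. Another probe of Cdkn1b gave 0.19 in males and -0.50 in females, the same signs. Its sex difference was -0.19 in controls and 0.50 in mutants, the latter with an unadjusted p of 0.016 in limma.

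**Figure D5:**
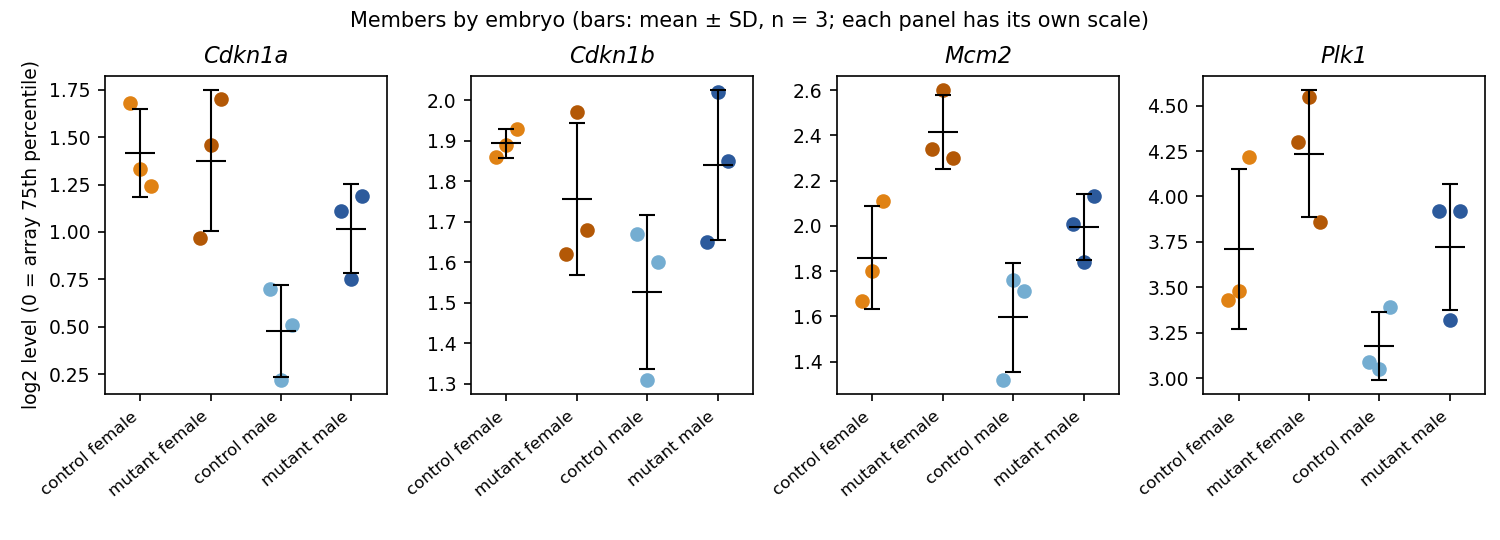
Log2 level relative to the 75th percentile of the array of Cdkn1a, Cdkn1b, Mcm2 and Plk1 in each embryo (points, 3 per group), with the group mean and SD; each panel has its own scale. All control males lie below all control females in Cdkn1a and Cdkn1b, and all mutants lie above the controls of their sex in Mcm2.

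Other measures were also compared between control males and control females. No slide held control embryos of both sexes, and with slide as a block the control sex difference was -1.17 ± 0.414 for Cdkn1a and -0.06 ± 0.255 for Cdkn1b. Handling genes (immediate early and heat shock genes, induced quickly when tissue is dissociated) had a negative sex difference in controls for 16 of 16, at a median of -0.84, 4 of them with an unadjusted p under 0.05, against 10.8% of all features. Between the mutant sexes 15 of the 16 were negative, at a median of -0.67. Their summed signal relative to the percentile of the array was 115 to 158 in control females, 108 to 190 in mutant females, 52.6 to 105 in control males and 59.2 to 140 in mutant males. In control males against control females 6 of 8 markers of mesonephric epithelium were lower, at a median of -0.51, 3 with an unadjusted p under 0.05. All 7 erythroid markers tested were lower, at a median of -1.01, 0 of them with an unadjusted p under 0.05 in limma. The summed erythroid signal was 699, 84.3 and 48.8 in control females and 28.4, 214 and 57.5 in control males. Of 5 germ cell markers tested, 4 were higher in control males, at a median of 1.01, 2 with an unadjusted p under 0.05 in limma. Of 9 gonadal somatic markers 8 were lower, at a median of -0.24, 0 with an unadjusted p under 0.05. In mutant against control males all 8 markers of mesonephric epithelium were higher, with a median of 0.95, 4 with an unadjusted p under 0.05 where 11.9% of all features had one, and a summed signal of 4.94 to 10.9 against 1.7 to 2.87. The part of the handling genes in the inhibitor differences, and of the cell type markers in these and the other male differences, was not tested. Of 19 targets of p53, the factor best known to induce Cdkn1a, 8 had a positive and 11 a negative sex difference in controls, with a median of -0.04. An unadjusted p under 0.05 was found for 2 of them in limma, both lower in males: Gtse1 (-0.95 ± 0.301, adjusted p = 0.39, no overlap) and Zmat3 (-0.63 ± 0.262, adjusted p = 0.46). Over 22 alternative settings the difference ran from -1.24 to -0.07 for Gtse1 and from -0.85 to -0.1 for Zmat3.

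Between control males and control females 0 of 33 members passed the threshold, against 0.183% of features, and 3 had an unadjusted p under 0.05, against 10.8%: Cdkn1a, Cdkn1b and Cenpa. Groups did not overlap for 9 members, 4 higher and 5 lower in males, against 15.9% of features. Pcna, Tyms and Rrm1 were 3 of those 4, with differences of 0.35 ± 0.161, 0.35 ± 0.165 and 0.23 ± 0.116 (adjusted p = 0.46 to 0.47), and Cdk1 was the other (0.32 ± 0.165, adjusted p = 0.48). Plk1 and Mki67 were on the lower side, with -0.54 ± 0.256 and -0.24 ± 0.257. The Mki67 value rests on 2 control males, and another probe of the gene gave 0.05. Between mutant males and mutant females 0 members passed, against 0.141% of features, 4 had an unadjusted p under 0.05, against 11.5%, and 9 did not overlap, 5 higher and 4 lower in males, against 22.8%. Those 4 were Cenpa, Mcm2, Cdk2 and Ccnd3.

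Cenpa, the histone H3 variant of centromeres, had levels of 1.89, 1.93 and 1.86 in female controls, 2.16, 1.98 and 1.93 in female mutants, 1.51, 1.46 and 1.82 in male controls and 1.72, 1.60 and 1.63 in male mutants. Every male lay below every female of its genotype, with differences of -0.30 ± 0.121 (adjusted p = 0.46) in controls and -0.38 ± 0.121 (adjusted p = 0.35) in mutants. In mutants the sex difference was -0.42 ± 0.163 (adjusted p = 0.39) for Mcm2, -0.39 ± 0.164 (adjusted p = 0.42) for Ccnd3 and 0.42 ± 0.175 (adjusted p = 0.42) for Cdk2. No slide held mutant embryos of both sexes, and with slide as a block 20 of 33 members had the other sign in this comparison. Over the alternative settings the difference ran from -0.5 to -0.05 for Mcm2, -0.46 to 0.08 for Ccnd3 and 0.05 to 0.59 for Cdk2. Ccnb2 levels were 4.49, 4.44 and 4.23 in female controls, 4.33, 4.39 and 4.23 in female mutants, 4.63, 4.48 and 4.67 in male controls and 4.61, 4.49 and 4.53 in male mutants, which did not overlap between the mutant sexes (0.22 ± 0.11, adjusted p = 0.45). The sex difference had the same sign in controls and mutants for 25 of 33 members (75.8%), against 72.6% of all features. For the difference between the mutant effects of the sexes, 0 members and 0.0% of features passed, and 2 members, Cdk4 and Cdkn1b, had an unadjusted p under 0.05, against 3.74% of features.

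Of 134 further genes of these pathways, 125 were tested and 0 passed the threshold in any of the 6 comparisons in limma. For the mutant effect averaged over the sexes, where 23.6% of all features had an unadjusted p under 0.05, 6 of 39 origin and fork genes had an unadjusted p under 0.05 as higher and 4 as lower, with a median of -0.06. The smallest p-values were those of Lig1, which joins Okazaki fragments (0.40 ± 0.112, adjusted p = 0.12), and Chaf1a, a subunit of the chromatin assembly factor at the fork (0.41 ± 0.134, adjusted p = 0.16). Of 20 E2F, RB and DREAM genes, 6 had an unadjusted p under 0.05, all higher, with a median of 0.21; Mybl2 (B-Myb) differed by 0.41 ± 0.118 (adjusted p = 0.13) and the repressor E2f7 by 0.43 ± 0.133 (adjusted p = 0.15). Of 36 spindle and checkpoint genes 3 were higher and 2 lower at that level, led by the phosphatase Cdc25b (0.50 ± 0.168, adjusted p = 0.17) and by Incenp, the scaffold of Aurora B (0.40 ± 0.142, adjusted p = 0.17). Of 4 other Cdk inhibitors 0 had an unadjusted p under 0.05; Cdkn2c differed by 0.22 ± 0.103 (adjusted p = 0.22) and Cdkn2b by -0.48 ± 0.227 (adjusted p = 0.22). Of 7 other cyclins and Cdks 1 had one, Ccni (0.27 ± 0.103, adjusted p = 0.18). Of 19 p53 targets 5 were higher and 2 lower, led by Zmat3 (0.62 ± 0.185, adjusted p = 0.14) and Phlda3 (0.33 ± 0.11, adjusted p = 0.17).

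In control males against control females, 31 of 39 origin and fork genes had a positive difference, with a median of 0.16 beside 0.04 for all features; 6 had an unadjusted p under 0.05, against 10.8% of all features, and 11 had groups that did not overlap, against 15.9%. Between the mutant sexes 26 of the 39 were positive, with a median of 0.11. The helicase cofactors Cdc45 (0.48 ± 0.121, adjusted p = 0.24) and Gins2 (0.44 ± 0.12, adjusted p = 0.3) led them. The licensing and synthesis members had a median of 0.14 in the same comparison, with 7 of 9 positive, the mitotic members had a median of -0.02, and the 36 spindle and checkpoint genes a median of 0.09, with 24 positive. The median of 0.14 was 0.02 with quantile normalization, 0.04 with normexp background correction, 0.06 with array weights and 0.07 with slide as a block.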

How the data were processed

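RNA of sorted gonadal somatic cells from 12 single embryos was measured on 12 Agilent 1-colour arrays. Images were quantified with Agilent Feature Extraction, per the submitters' processing notes, in version 10.5.1.1, per the file headers. The deposited processed signal is a linear intensity from which background had been subtracted, per the file headers; raw intensity and local background were deposited beside it. No scaling between arrays is recorded in the deposited files.

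Here the processed signal of 43379 non-control spots was taken as log2, outlier spots were dropped and replicate spots averaged to 41174 probes. The array's own 75th percentile over these probes was then subtracted. Accessions were matched to RefSeq symbols: 27479 probes had a symbol and 13695 had none. Probes entered the fit when every array of some group had them well above background, and a gene was represented by its brightest probe on average. Group means over all 12 arrays were fitted in limma 3.58.1 under R 4.3.3, with Benjamini-Hochberg adjustment at 0.05 over 19178 features, in 6 comparisons; scripts were tested on simulated data. Figures used matplotlib 3.10.9. P-values rest on the spread between embryos of a group; the labels name no litter.

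Members and lists were chosen with earlier results of these data known. Full values are given for the 2 members of each class with the smallest unadjusted p in a comparison, for the inhibitors, D-type cyclins, Pcna and Mki67, and for the 2 such genes of each pathway list in the comparison described; other members named were taken up as part of the 35. Of 14 further probes of members, 4 had the opposite sign to the representative for the mutant effect averaged over the sexes, 5 in males, 0 in females and 7 in the control sex comparison. Alternatives were quantile normalization, normexp background correction with an offset of 50 (on the median signal, with background outliers replaced by the array median, a detail chosen after the data were seen), filters on dim probes, every probe, only the groups compared, the replicate number or slide as a block, array weights, brightness as a covariate, and leaving out each array.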

Additional observations from a re-analysis of the deposited data

How the results depend on the processing

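The number of features called moved by over 1.5 times in many settings. Without a filter on dim probes it was 34 in males and 17 for the mutant sex comparison. With only the groups compared it was 22 in males, 33 in females, 10 for the control sex comparison and 10 for the mutant one. With slide as a block it was 48, 13, 57, 13 and 7 (males, females, both sexes, control sex, mutant sex) and 7 for the difference of mutant effects. With array weights it was 2648, 5789, 9952, 239 and 128, and the members called were 5, 9, 14, 1 and 0; the 1 was Cdkn1a between the control sexes (adjusted p = 0.04 in limma). With brightness as a covariate it was 54 in males, 42 in females, 108 over both sexes, 10 for the mutant sex comparison and 1 for the difference of mutant effects. With the filter on all 12 arrays it was 11 for the mutant sex comparison. The causes were not tested.

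Class medians moved with slide as a block to 0.20 (licensing, females), 0.15 (mitotic, females), -0.15 (licensing, mutant sexes) and -0.14 (mitotic, mutant sexes); with quantile normalization to 0.08 (licensing, both sexes) and -0.09 (licensing, mutant sexes); and with normexp to -0.09 (licensing, mutant sexes). Class levels moved to 0.10 and 0.12 (licensing, mutant females, quantile and normexp), -0.04 and -0.05 (licensing, control males) and 0.11 (mitotic, mutant females, normexp). Of 198 differences of members, 69 had the other sign with slide as a block, 40 with brightness, 33 with normexp, 22 with array weights, 20 with quantile normalization and 7 to 22 when 1 array was left out.

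Leaving out 1 array gave 27 to 91 features called in males, 31 to 122 in females, 126 to 4692 over both sexes (4692 without control female 3), 19 to 40 between control sexes, 11 to 39 between mutant sexes and 0 to 0 for the difference of mutant effects; members called were 0 to 8 over both sexes and 0 to 0 otherwise.

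The number of arrays and the signal over background limit these results: the Mki67 spot was lost on 1 array, most members rest on 1 spot per array, and each group holds 3 embryos, unevenly spread over slides. Values within a slide rest on a lone embryo on 1 side and were not tested.

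The replicate numbers were not taken as a pairing of the embryos. Deviations of same-numbered arrays from their group means correlated at -0.532 to 0.426 over 18 pairs, 6 of them over 0.1. For arrays of different numbers the range was -0.598 to 0.553 over 36 pairs, 18 of them over 0.1. Deviations within a group sum to 0, so this check cannot exclude a pairing. The replicate block gave 23 features between the control sexes and 16 between the mutant sexes, with 0 members called.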
